A study of Mus musculus with 48 samples.

Results

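The Zscan4 genes described here are 8 mouse genes known from the 2-cell embryo and from the rare 2-cell-like state of embryonic stem cells (ESCs): Zscan4c, Zscan4d, B020031M17Rik, BC080695, Gm5039, Gm20767, Nelfa and Bola1. The genes were chosen by 10x values, because their UMIs (unique molecular identifiers, each standing for 1 captured transcript) were found together in single cells of 1 library, and they were taken by Ensembl ID from the 32285 genes of that library. The same symbols were then looked up in the bulk tables, where 7 of the 8 were listed among 22173 genes of a count table and 3 of the 8, Gm20767, Nelfa and Bola1, among 13682 genes of a table of FPKM (fragments scaled to transcript length and library size). The 10x values are therefore given below as a description, with no test. The bulk values were not the stated ground of the choice. Earlier results of these data were known when it was made, so the bulk tests may not be fully independent of it.

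The study induced female C57BL/6 ESCs, maintained on inactivated mouse embryonic fibroblasts and passaged in 2i + LIF beforehand, into gonadal somatic cell-like cells (GSCLCs) on fibronectin. The inducers were vitamin C (Vc), the retinoic acid receptor alpha agonist AM580, or both (V580). Con was read as the culture without either compound, and Con, Vc, AM580 and V580 cells were sequenced in 2 libraries each at 24 h and 48 h. V580 cells were also sequenced on days 4, 6, 8 and 10 (D4 to D10, 3 libraries each). Beside them stood cells of E12.5 female C57BL/6 gonads (E12.5_GC, 3 libraries). The titles give 1 V580 sample of day 6 on the 10x platform, whereas the study's text speaks of 10x sequencing in triplicate. The title does not say how this sample relates to those runs. The study defines GSCLCs as the SSEA1-negative cells left after bead sorting, and the titles do not say whether the V580 cells were sorted. Gonadal somatic cells (GSCs) came from C57BL/6 female gonads of E12.5, E13.5 or E16.5 embryos and from ovaries of 6-week mice (P6w), 2 libraries each. The study describes removal of SSEA1-positive germ cells on magnetic beads for the E12.5 gonads. It also names magnetic sorting of E12.5 and E13.5 gonads for separate single-cell sequencing. The study's text speaks of control cells of day 0, whereas the titles give Con libraries of 24 h and 48 h, and the titles were followed here. No label ties a library to a separate culture or animal, so the p-values measure the spread between these libraries, which may be technical. The PGCs recovered from aggregates were not analysed here.

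ESC cultures hold a small and changing fraction of cells that transiently switch on transcripts of the 2-cell embryo. The transcription factor Dux drives this programme, and its targets include the Zscan4 cluster, whose zinc finger and SCAN domain proteins act in telomere maintenance, as well as gene families such as Tcstv, Usp17l and the Pramef-like genes. Nelfa encodes a subunit of the negative elongation factor, which holds RNA polymerase II near promoters, and Bola1 encodes a mitochondrial BolA family protein; unlike the Zscan4 genes, both are also used by ordinary cells.

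In GRCm38 with the GENCODE vM21 annotation, all 8 are protein-coding genes. Zscan4c (chr7:11005745-11010547, plus strand) and Zscan4d (chr7:11161374-11166159, minus strand) lie in the Zscan4 cluster. B020031M17Rik (chr13:119949357-119950806, minus strand) and Gm20767 (chr13:120140246-120155335, plus strand) share another cluster. Gm5039 (chr12:88320122-88324026, minus strand), BC080695 (chr4:143551700-143573798, plus strand), Nelfa (chr5:33897916-33936413, minus strand) and Bola1 (chr3:96196588-96219709, minus strand) lie outside both. BC080695, Gm20767 and Bola1 each overlap 1 other annotated gene on the same strand, and Nelfa overlaps 1 on each strand, so reads in the shared parts cannot be assigned with certainty.

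The copies of the Zscan4 cluster are near-identical. Transcripts of Zscan4c and Zscan4d shared 97.5% of 2270 aligned bases, and Zscan4c shared 99.6% of 1806 bases with Zscan4f, a copy that the FPKM table lists in its place. Reads of these copies may thus have been split between them, and values of single copies are uncertain. The RefSeq promoter windows of GRCm38.p6, from 250 bases before to 50 bases after the start of transcription, are shown for Zscan4c, Zscan4d and Zscan4b because the first 2 were counted in single cells and the third is a copy measured in the bulk libraries. Of the 8 genes, 4 had a window (Zscan4c, Zscan4d, Nelfa and Bola1). The windows lie at chr7:11005495-11005794 (Zscan4c, plus strand), chr7:11166099-11166398 (Zscan4d, minus strand) and chr7:10905001-10905300 (Zscan4b, minus strand). Capitals mark TGATNNNATCA, an inverted repeat of TGAT with any 3 bases between that resembles the sites of double-homeobox factors such as Dux, and the TATA box TATAAA.
Zscan4c: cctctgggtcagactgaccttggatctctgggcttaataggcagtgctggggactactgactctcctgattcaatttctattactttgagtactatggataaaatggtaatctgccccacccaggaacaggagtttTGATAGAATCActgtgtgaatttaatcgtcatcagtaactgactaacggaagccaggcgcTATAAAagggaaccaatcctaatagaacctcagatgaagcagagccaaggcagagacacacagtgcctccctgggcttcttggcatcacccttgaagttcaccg
Zscan4d: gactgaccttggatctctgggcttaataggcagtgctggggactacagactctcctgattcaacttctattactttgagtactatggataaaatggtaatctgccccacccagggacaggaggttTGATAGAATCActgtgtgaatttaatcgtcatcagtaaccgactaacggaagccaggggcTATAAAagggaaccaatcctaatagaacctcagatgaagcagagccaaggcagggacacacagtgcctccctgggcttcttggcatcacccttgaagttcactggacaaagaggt
Zscan4b: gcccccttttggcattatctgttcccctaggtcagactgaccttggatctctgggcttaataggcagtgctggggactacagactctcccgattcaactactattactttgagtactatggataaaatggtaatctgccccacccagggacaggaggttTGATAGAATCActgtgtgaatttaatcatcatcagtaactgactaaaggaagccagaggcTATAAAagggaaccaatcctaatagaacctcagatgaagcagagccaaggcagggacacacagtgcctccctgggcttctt
Each window held TGATNNNATCA once, beginning at positions -114, -125 and -91 from the annotated start, and TATAAA once, at -54, -65 and -31. The window of Zscan4f, which shared 99.3% of 277 aligned bases with that of Zscan4c, held both at the positions seen in Zscan4b. Both strands were searched, the patterns do not overlap one another, and TGATNNNATCA was picked after the sequences had been read. Of 32851 promoter windows, 159 (0.484%) held TGATNNNATCA, 4473 (13.6%) held TATAAA and 47 (0.143%) held both. The windows of Nelfa and Bola1 held neither set of letters.

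In the V580_D6 10x sample, the 6 genes other than Nelfa and Bola1 were found in few cells and largely in the same ones. Of 15412 barcodes, all distinct, 15315 passed the study's limits, with a median of 9281 UMIs and 3074 genes per cell. Gm20767 had 583 UMIs in 88 cells (0.575% of cells, 95% Clopper-Pearson interval 0.461 to 0.707%). B020031M17Rik had 300 UMIs in 74 cells, Gm5039 158 in 46, Zscan4d 157 in 31, BC080695 136 in 43 and Zscan4c 107 in 26 (0.170%, 0.111 to 0.249%). Nelfa and Bola1 were on a different footing, with a UMI in 30.9% and 36.4% of all cells, so they were left out when cells were counted by the number of these genes. This change to 6 genes was made after the values had been seen, and counting all 8 gives 2651 cells (17.3%) with at least 2.

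No UMI of the 6 genes was found in 15100 cells, and 185 cells had 1 of them. The other 30 cells (0.196%, 0.132 to 0.280%) had at least 2, and 18 of these had at least 4. The 30 cells held 0.160% of all UMIs in the library but between 82.0% (B020031M17Rik) and 91.6% (Zscan4c) of each gene's UMIs. Because the cells were picked by these same genes, a high share follows in part from the choice. Zscan4c and Zscan4d were found together in 14 cells, 53.8% of the Zscan4c cells and 45.2% of the Zscan4d cells. Genes of different chromosomes overlapped as well: Gm5039 and Gm20767 shared 20 cells, 43.5% and 22.7% of theirs.

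Within the 30 cells the level ranged widely. The cell with the highest total had 307 UMIs of the 6 genes among 4424 (6.94%), of which 183 were Gm20767, 45 B020031M17Rik, 41 Zscan4d, 19 Gm5039, 15 BC080695 and 4 Zscan4c. The next cell, with 185 UMIs of the 6 genes, was led by B020031M17Rik (57) and Gm20767 (55), and Gm5039 reached 41 there. Zscan4c was highest, at 21 UMIs, in a cell without BC080695 or Gm5039, so the leading gene differed between cells. At the other end, the 6 cells with just 2 of the genes held 2 to 6 of their UMIs, and 181 of the 185 cells with 1 gene held exactly 1. Whether such single UMIs came from the cell itself or from free RNA in the droplets was not tested. In the 30 cells Gm20767 supplied 41.5% of the 1252 UMIs and Zscan4d 11.4%, against 33.3% and 7.41% of the 189 UMIs in the cells with 1 gene.

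**Figure D1:**
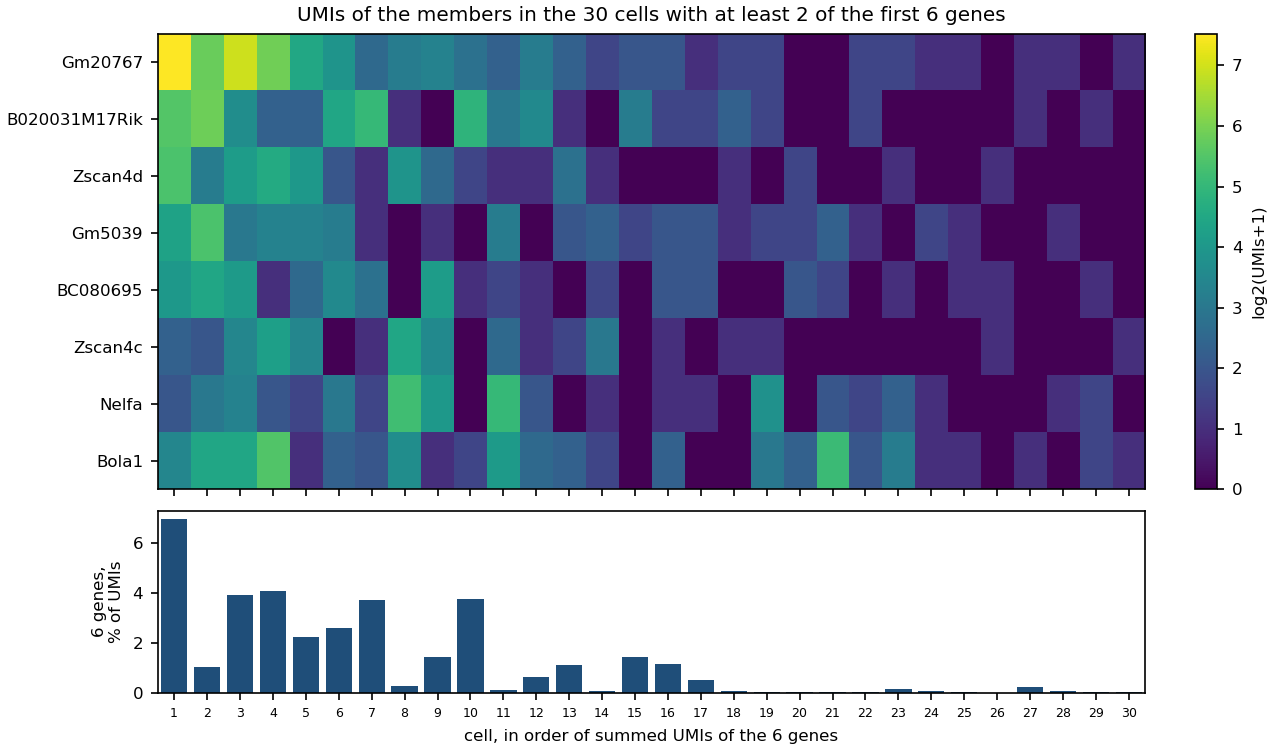
Each column is 1 of the 30 cells with UMIs of at least 2 of the 6 genes, ordered by their summed UMIs. The heat map gives log2(UMIs + 1) for all 8 genes and the bars give the 6 genes' percentage of the cell's UMIs, which reached 6.94% in the first cell; the last cells held 2 UMIs.

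The 30 cells were shallower than the rest, with a median of 4112.5 UMIs (909 to 39786) against 9222.5 in cells with none and 12962 in cells with 1 of the genes. Their median share of mitochondrial counts was 3.59%, against 3.36% in all other cells, and 1 cell reached 32.5%. Only 1 of them was among the 5% of cells with the most UMIs. Doublets were not called, and without that 5% the share of co-detecting cells was 0.199%.

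Nelfa and Bola1 were both more abundant in these 30 cells than in the rest of the library. Nelfa reached 568 CPM (counts scaled to a total of 1000000; 95% Poisson interval 480 to 668, counting error only) against 42.2 in cells with none and 44.3 in cells with 1 of the 6 genes. Bola1 reached 814 CPM (708 to 931) against 57.7 and 81.3. After every cell was thinned to 1000 UMIs, which kept 28 of the 30 cells, Nelfa was detected in 35.7% of them against 3.86% of cells with none, and Bola1 in 57.1% against 5.60% (unthinned, 70.0% against 30.7% and 83.3% against 36.2%). The relatives of both genes showed no such gap. Of the other subunits, Nelfb was somewhat higher, at 73.0 CPM (43.9 to 114) in the 30 cells against 42.7 in cells with none. Nelfcd was at 34.6 against 40.04 and Nelfe at 53.8 against 61.4, and the BolA genes Bola2 (161 against 201) and Bola3 (61.4 against 63.1) were no higher.

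Not every one of the 30 cells was high for both. At least 1 UMI of each of Nelfa and Bola1 was found in 19 of them. Nelfa reached 10 UMIs in 4 of the 30 cells and in 0 of the other 15285, while Bola1 did so in 7 of the 30 and in 6 of the others. The cell with the most Nelfa, 36 UMIs, had 44 UMIs of the 6 genes. The cell with the most Bola1, 65 UMIs, held 1 UMI of the 6 genes and lay outside the 30.

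**Figure D2:**
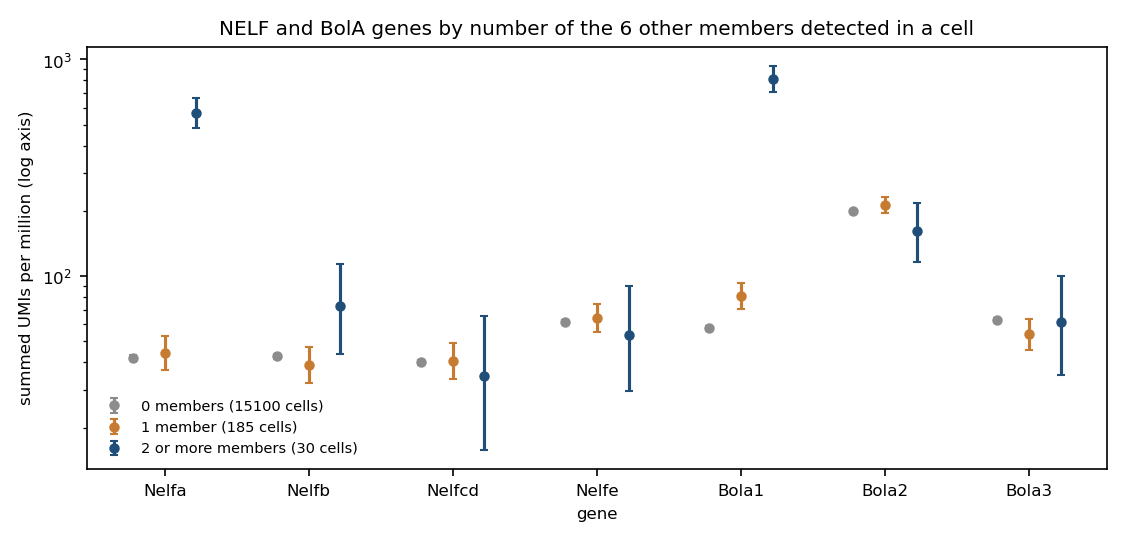
Summed CPM (log axis) of Nelfa, Bola1 and their relatives in cells with none (15100 cells), 1 (185 cells) or at least 2 (30 cells) of the 6 genes; bars through the points are 95% Poisson intervals. Nelfa at 568 and Bola1 at 814 CPM in the 30 cells stand above their levels in the other classes. That follows in part from the choice of these 2 genes by values of this library. Nelfcd, Nelfe, Bola2 and Bola3 do not stand above theirs.

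Other transcripts of the 2-cell programme sat in the same cells. From a list of 34 further genes known from 2-cell embryos and 2-cell-like cells, 33 were in the table and 28 had a UMI in the 30 cells; together they summed to 3095 CPM there against 37.9 elsewhere, where the polycomb component Rybp alone made up 36.4. AF067061 had 102 UMIs in the 30 cells and 11 in all others, Usp17lc 78 and 12, and Tcstv1, which lies beside B020031M17Rik and Gm20767, 74 and 10. The 6 other Zscan4 copies in the table summed to 618 against 0.111 CPM. Duxf3, the Dux gene of the table, had 27 UMIs in 6 of the 30 cells and 4 in all others, and 21 of the 27 were in the cell with the most Nelfa. The maternal factor gene Dppa2, which acts upstream of Dux, had 37 UMIs in 9 of the cells (142 against 1.24 CPM), of which 23 were in 1 cell and 1 to 3 in each of the other 8, but the summed level of 18 regulators of the state was 1425 against 1395 CPM. The stem cell factor gene Pou5f1 had no UMI in the 30 cells, which at this depth allows up to 10% of cells with a UMI and says nothing of cells using the gene, and it was detected in 1.55% of the others.

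Markers of the cells of the culture were present in the 30 cells too. The 5 mesothelial markers (Upk3b, Upk1b, Msln, Lrrn4, Krt19) summed to 703 CPM against 452 in the others and were seen in 19 cells, with Krt19, a keratin gene, supplying most of the sum (549 against 292 CPM) and Upk3b at 84.5 against 118. The 3 granulosa markers (Fst, Wnt6, Foxl2) summed to 184 against 123 CPM, with Wnt6 at 161 against 64.7 CPM from 5 cells, Fst at 19.2 against 56.5 from 1 cell and Foxl2 at 1 UMI. The 5 interstitial collagen and stromal markers were at 200 against 575 CPM. The 8 pluripotent markers were at 280 against 91.3 CPM, of which Dppa5a supplied 211 against 59.1 from 7 cells. Only 4 of the 8 were higher, and Pou5f1, Esrrb and Tdgf1 were at 0. The 8 primordial germ cell markers were at 99.8 against 73.0 CPM and the 9 extraembryonic endoderm markers at 234 against 515. The 4 endothelial markers were at 88.3 against 63.3 CPM, with Kdr at 84.5 against 58.8 and Pecam1 and Tek at 0. The 4 neuron markers were at 15.4 against 23.6 CPM and the 3 feeder fibroblast markers at 46.1 against 149. The 3 erythroid markers were at 0. The part of these cell types in the result was not tested.

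The genes most like the 6 in the 10x sample, by the ratio of CPM in the 30 cells to that in the others, were led by 7 genes without a UMI elsewhere: 4931428L18Rik (28 UMIs), Gm13083 (16), Gm43678 (10), Gm6509 (9), Zscan4b (8), Gm2056 (8) and ENSMUSG00000095475 (6). Usp17le (38 UMIs against 1), Gm13119 (29 against 1) and Gm6803 (42 against 2) followed. Of 16963 genes with at least 20 UMIs, 44 had more than 50% of them in the 30 cells. Among them were 18 of the listed genes and the 6, by which the cells had been picked. By position, 33 of the 44 fell into 7 clusters of neighbours less than 1000000 bases apart. Zscan4c and Zscan4d were in one of 6 such genes (chr7:11005745-11614112), Gm5039 in one of 8 (chr12:87514316-88324026), BC080695 in one of 4 (chr4:143551700-144364419), and B020031M17Rik and Gm20767 in one of 7 with Tcstv1, Tcstv3 and AF067061 (chr13:119893388-120318178). The limits for this count were set after the data had been seen.

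The bulk libraries of 24 h and 48 h asked which compound moves the early culture. At 48 h all 3 listed genes were higher with AM580 and higher still in mean FPKM with V580, and none was called under Vc alone. Gm20767 stood at 3.24 and 3.40 FPKM in the Con libraries and 2.05 and 2.22 with Vc. It reached 18.9 and 19.8 with AM580 and 25.1 and 29.5 with V580, so the groups with AM580 did not overlap those without it. Such a separation was not counted over all genes. Bola1 stood at 32.7 and 33.9 FPKM in Con, 30.1 and 30.95 with Vc, 73.8 and 78.9 with AM580 and 99.7 and 109.9 with V580. Nelfa moved least, from 27.4 and 28.0 FPKM in Con and 26.6 and 27.6 with Vc to 31.5 in both AM580 libraries and 33.6 and 34.2 with V580. The ratios of mean FPKM to Con were 5.83 and 8.23 for Gm20767, 2.29 and 3.15 for Bola1 and 1.14 and 1.22 for Nelfa under AM580 and V580. In bulk, a change in the number of cells using a gene and a change in RNA per cell cannot be told apart.

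**Figure D3:**
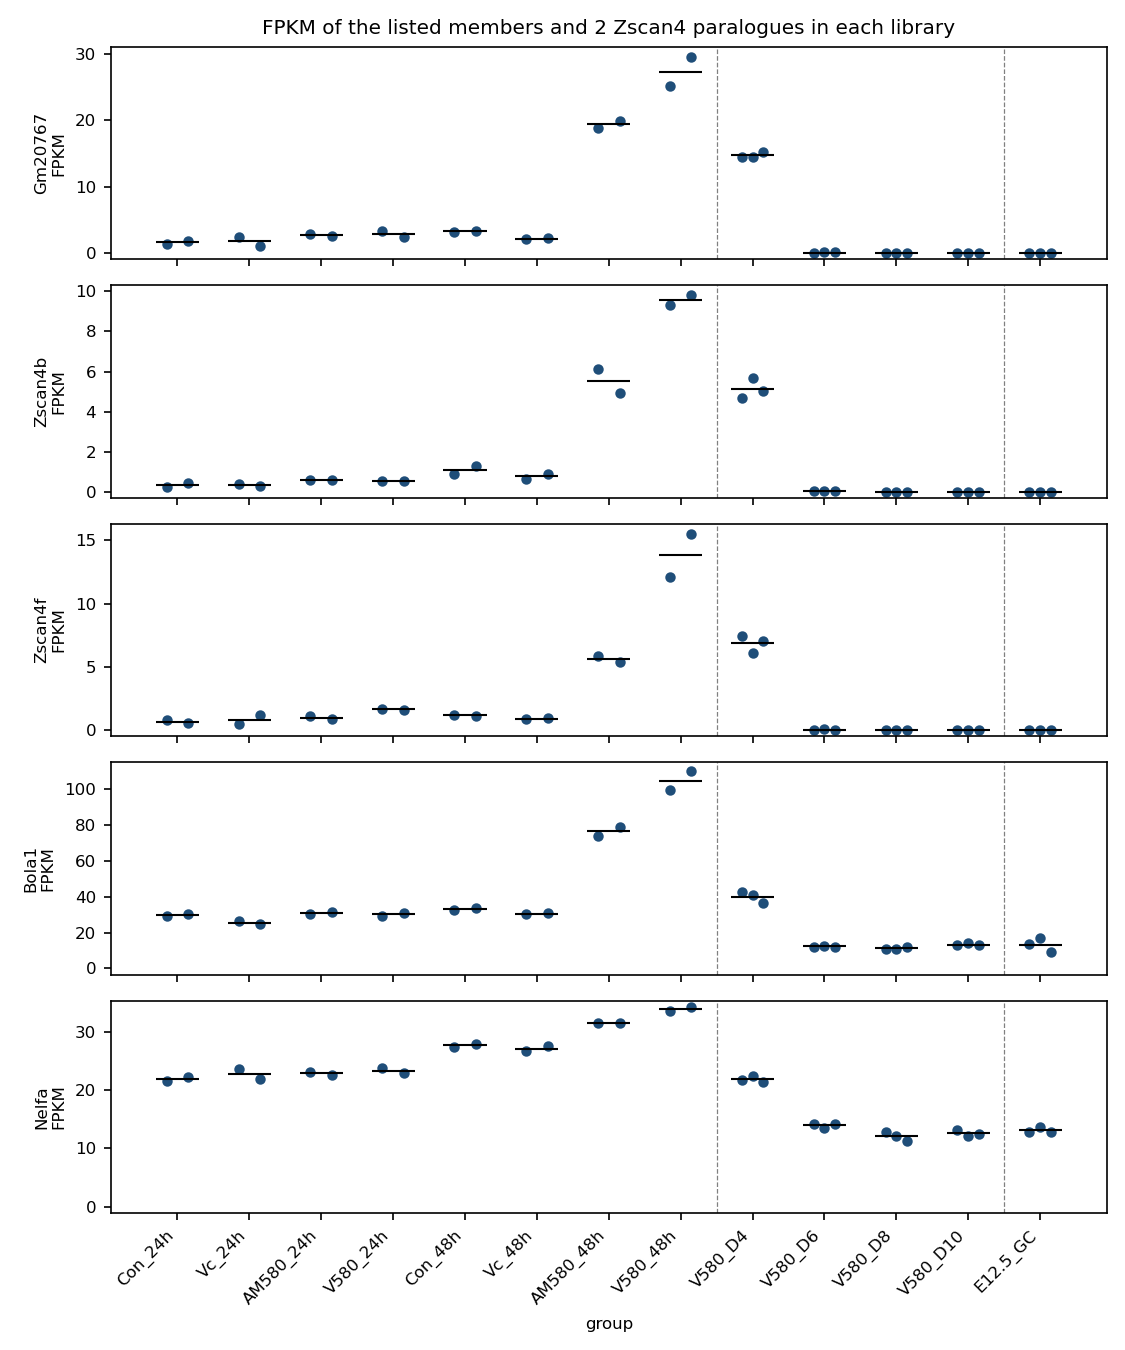
FPKM of Gm20767, the Zscan4 copies Zscan4b and Zscan4f, Bola1 and Nelfa in each of the 31 libraries; points are libraries and bars are group means. AM580_48h, V580_48h and V580_D4 are the high groups, with Gm20767 between 14.5 and 29.5 FPKM, and by day 6 it was below 0.1 FPKM.

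On the log2(FPKM + 1) scale, which understates changes of low genes, limma called all 3 of 3 genes higher under AM580 at 48 h, where 57.0% of 10644 genes were called in either direction (25.7% higher). The differences were 2.24 ± 0.171 (SE; adjusted p = 5.49e-08) for Gm20767, 1.17 ± 0.0532 (1.54e-10) for Bola1 and 0.18 ± 0.0423 (0.00226) for Nelfa. Under V580 at 48 h all 3 were again called, beside 57.1% of all genes (25.9% higher), with differences of 2.71 ± 0.171 (adjusted p = 6.38e-09), 1.62 ± 0.0532 (3.92e-12) and 0.28 ± 0.0423 (5.41e-05). Gm20767 and Bola1, but not Nelfa, also passed a limit of 2-fold, which 2.33% of genes did upward under AM580 and 1.84% under V580. Both comparisons use the same Con libraries. Vc at 48 h gave 0 calls of 3 by limma (background 12.4%), with 2 of the 3 at an unadjusted p below 0.05: Gm20767 at -0.46 (adjusted p = 0.0943) and Bola1 at -0.12 (0.152). Without either Vc_24h library, whose values of Gm20767 lay far apart, Gm20767 was called lower under Vc at 48 h (adjusted p = 0.00951 or 0.00946).

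V580 was compared with AM580 directly at 48 h to ask what Vc adds. Bola1 was higher with V580, by 0.45 ± 0.0532 (adjusted p = 3.64e-05), the 1 call of 3 where the background was 19.2%. Gm20767 differed by 0.47 ± 0.171, with an adjusted p of 0.0675, and Nelfa by 0.10 ± 0.0423 (0.107). The Vc_24h libraries, at 2.48 and 1.11 FPKM, carried much of the spread of Gm20767, and the adjusted p for its V580 to AM580 difference was 0.0057 or 0.00564 without either of them. A contrast added after the data had been seen asked whether the effect of Vc differed with and without AM580. It did for Bola1 (0.57, adjusted p = 0.000641) and Gm20767 (0.94, 0.0467), 2 of 3 against a background of 3.61%, and Nelfa stood at 0.13 (0.311). The call on Gm20767 was lost in 13 of 20 alternative settings. The same contrast at 24 h gave 0 calls of 3 (background 0.0376%), with 1 at an unadjusted p below 0.05.

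At 24 h the differences of the 3 genes from Con under AM580 and V580 were smaller than at 48 h. Gm20767 was at 1.43 and 1.79 FPKM in Con, 2.80 and 2.62 with AM580 and 3.36 and 2.38 with V580, and Bola1 lay between 24.6 and 31.2 and Nelfa between 21.5 and 23.8 FPKM in all 8 libraries. Vc lowered Bola1 by 0.22 on the log2 scale (adjusted p = 0.0131), the 1 call of 3 (background 13.6%), and the call was lost without Con_24h replicate 2 (adjusted p = 0.0788) or Vc_24h replicate 2 (0.0737). AM580 gave 0 calls of 3 by limma (background 14.8%) and 1 at an unadjusted p below 0.05, Gm20767 at 0.51 (adjusted p = 0.0594), which was called without either Vc_24h library (0.00361 or 0.00357). V580 gave 1 call of 3 (background 29.0%), Gm20767 at 0.56 (0.0234), which was lost without Con_24h replicate 1 (adjusted p = 0.133) or V580_24h replicate 1 (0.213). V580 against AM580 gave 0 calls of 3 (background 14.8%), and 0 at an unadjusted p below 0.05. Con itself changed between the time points: all 3 genes were higher at 48 h than at 24 h (background 66.0%, 32.4% higher), Gm20767 by 0.73 (0.00161), Nelfa by 0.33 (7.64e-06) and Bola1 by 0.16 (0.0177). The Bola1 call was lost without Con_24h replicate 1 (adjusted p = 0.0914) or Con_48h replicate 2 (0.109).

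The effect of each inducer was also tested for a difference between 48 h and 24 h. The AM580 effect was larger at 48 h for 2 of 3 genes (background 35.0%, with 1760 of 10644 genes higher), by 1.72 (adjusted p = 8.21e-05) for Gm20767 and 1.12 (5.91e-08) for Bola1, with Nelfa at 0.12 (0.145). The V580 effect was larger for all 3 (background 33.9%, 15.8% higher), by 2.15 (1.11e-05) for Gm20767, 1.61 (1.21e-09) for Bola1 and 0.19 (0.022) for Nelfa. The Nelfa call was lost without any 1 of 4 libraries (Con_24h replicate 2, V580_24h replicate 2, Con_48h replicate 1 and V580_48h replicate 2), with adjusted p from 0.0669 to 0.0903. The Vc effect gave 0 calls of 3 by limma (background 2.90%), with 1 at an unadjusted p below 0.05, Gm20767, which was called without Vc_24h replicate 2 (-0.88, adjusted p = 0.0102).

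**Figure D4:**
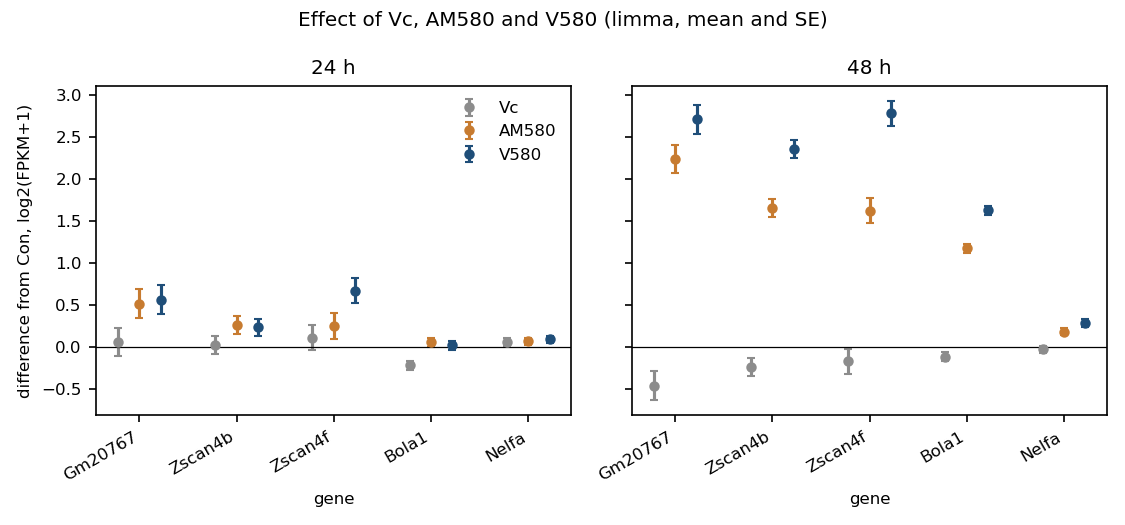
Differences from Con of the same time on the log2(FPKM + 1) scale, with bars of 1 standard error from the limma fit, for Vc, AM580 and V580 at 24 h and 48 h. Gm20767 reached 2.71 and Bola1 1.62 under V580 at 48 h, whereas Nelfa stayed at 0.28.

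Zscan4c and Zscan4d were not listed in the FPKM table, and 2 copies of the cluster, Zscan4b and Zscan4f, were. Zscan4b was at 0.893 and 1.27 FPKM in the Con libraries of 48 h, 6.13 and 4.92 with AM580 and 9.32 and 9.81 with V580. Zscan4f was at 1.16 and 1.14, 5.82 and 5.36, and 12.1 and 15.5 FPKM in the same order. Neither copy overlapped between Con and the groups with AM580, a separation that was not counted over all genes. Zscan4b passed the filter on low values only through AM580_48h and V580_48h, so its difference from Con was built into its inclusion and is given without a test, at 2.35 for V580. The V580 difference from Con was 2.78 ± 0.149 for Zscan4f (adjusted p = 1.06e-09). Between the groups with AM580, V580 exceeded AM580 by 0.70 (adjusted p = 0.000345) for Zscan4b and 1.16 (7.82e-05) for Zscan4f. At 24 h Zscan4f was already higher with V580, at 1.65 and 1.60 FPKM against 0.805 and 0.517 in Con. That difference was 0.67 (limma, adjusted p = 0.00377, background 29.0%) and was not followed through the alternatives. Zscan4b was not called under V580 at 24 h (0.23, 0.125), and neither copy was under AM580. As a measure of how the table treats genes with near-identical copies, Gapdh, which has many processed copies, ranged from 0.940 to 108.5 FPKM and by up to 26.5 times between libraries of one group.

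Few of the remaining 2-cell genes were listed in FPKM. Of the 34, 6 were listed and 5 tested at 48 h. The arginase gene Arg2 held 1.10 and 1.303 FPKM in Con, 7.32 and 8.13 with AM580 and 13.8 and 13.9 with V580, a V580 difference of 2.75, while Tcl1 (-0.32) and Rybp (-0.25) were called lower under V580. The deubiquitinase gene Usp17la (2.39) and Gm4027 (1.91) passed the filter only through AM580_48h and V580_48h, so no count or median over the list is read. Of 17 regulators tested, 2 rose and 9 fell under V580 (median -0.12), where 25.9% of all genes were called higher and 31.2% lower and the median was -0.02, with Tet2, a DNA demethylase gene, at 0.75 and Dppa4 at -0.33. None of the other NELF subunits rose under AM580 or V580, and 1 of 3 fell under each, Nelfcd by 0.17 under V580. Bola2 fell by 0.24 under V580 and Bola3 was not called. Of 12 pluripotency genes 7 rose and 4 fell under V580 (median 0.31, against -0.02 for all genes). Pou5f1 at -1.28 and Sox2 at -0.79 were among those that fell. The summed FPKM of the list was 2877 to 2997 in Con, 3121 to 3337 with AM580 and 2630 to 2748 with V580. Of 4 telomere genes tested, 1 rose and 1 fell. The 5 feeder and fibroblast genes, a measure of carried-over fibroblasts, summed to 27.4 to 29.1 FPKM in Con, 25.2 to 27.4 with AM580 and 33.1 to 35.2 with V580, with 3 of 5 higher and 1 lower under V580. The 8 listed of 9 extraembryonic endoderm markers summed to 5.51 to 6.14 FPKM in Con, 5.57 to 5.88 with Vc, 24.2 to 24.3 with AM580 and 12.49 to 14.6 with V580. The 5 mesothelial markers summed to 14.8 to 15.4 FPKM in Con, 24.5 to 27.7 with AM580 and 12.05 to 13.1 with V580. The part of these cells in the result was not tested.

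Over the days of V580 induction Gm20767 went from high to near absent, while Bola1 and Nelfa fell after day 4 to lower levels that lasted. Gm20767 held 14.5, 14.5 and 15.2 FPKM on day 4, then 0.0615, 0.0945 and 0.0881 on day 6, 0 to 0.0631 on day 8, and was listed at 0 in all 3 libraries of day 10 and all 3 of E12.5_GC. Bola1 fell from 42.4, 40.9 and 36.7 FPKM on day 4 to 12.1, 12.7 and 12.1 on day 6 and stayed between 10.7 and 13.9 afterwards. Nelfa fell from 21.7, 22.4 and 21.3 to 14.1, 13.6 and 14.2 FPKM and lay between 11.3 and 13.2 on days 8 and 10. The day 4 libraries overlapped those of no later day for any of the 3. How many of all genes separated likewise was not counted, and for Gm20767 the filter on low values built the separation in. E12.5_GC held 9.39 to 17.1 FPKM of Bola1 and 12.8 to 13.7 of Nelfa.

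From day 4 to day 6 Bola1 fell by 1.63 ± 0.139 on the log2(FPKM + 1) scale (limma, adjusted p = 2.76e-07) and Nelfa fell by 0.61 ± 0.0574 (7.90e-07), where 44.9% of 11512 genes were called and 23.0% called lower. Gm20767, Zscan4b and Zscan4f passed the filter on low values only through day 4, so a difference from that day was built into their inclusion, and that of Gm20767 (-3.86) is given without a test. From day 6 to day 8 Nelfa alone was called, at -0.19 (0.0143; background 41.1%), and lost without V580_D6 replicate 3 (adjusted p = 0.053) or V580_D8 replicate 3 (0.0787). From day 8 to day 10 there were 0 calls of 3 by limma and 0 at an unadjusted p below 0.05 (background 34.5%). Gm20767 was at or near 0 FPKM on both days, so this count rests on Bola1 and Nelfa. Zscan4b and Zscan4f followed Gm20767, at 4.66 to 5.65 and 6.13 to 7.40 FPKM on day 4 and at most 0.025 and 0.0689 on day 6. The listed 2-cell genes Usp17la, Arg2 and Gm4027, which also passed the filter only through day 4, had differences of -3.21, -2.65 and -1.19, given without a test. In the same interval the summed FPKM of the 12 pluripotency genes went from 249.7 to 277.3 on day 4 to 65.8 to 77.1 on day 6, and their part in the result was not tested.

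Against E12.5_GC, Bola1 and Nelfa were higher on day 4 (background 71.6%, 37.2% higher), Bola1 by 1.55 (adjusted p = 1.06e-07) and Nelfa by 0.69 (4.56e-08), and neither a fold nor a test is given for Gm20767, which is listed at 0 in E12.5_GC. On day 6 Gm20767 was the 1 call of 3 (adjusted p = 0.0471; background 67.0%), on values below 0.1 FPKM, and this was lost in 12 of 16 settings. Days 8 and 10 gave 0 calls of 3 each by limma and 0 at an unadjusted p below 0.05 (backgrounds 63.2% and 69.5%). Gm20767 was at or near 0 FPKM in all of these groups, so those counts rest on Bola1 and Nelfa. Nelfa was, however, called lower by limma on day 8 without V580_D8 replicate 1 (-0.15, adjusted p = 0.0414). E12.5_GC replicate 3 had the lowest Bola1 of its group. Without it, Bola1 was lower on day 6 (-0.29, adjusted p = 0.00733) and day 8 (-0.40, 0.000692) than in E12.5_GC. The E12.5_GC libraries carried 1038 to 4435 summed FPKM of the 3 erythroid markers, against at most 0.739 in the V580 days, and its part in these differences was not tested.

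The genes whose FPKM pattern was most like that of Gm20767 over the 31 libraries, by Pearson's r of log2(FPKM + 1) among 11819 genes, were Scd3 (0.985), Arg2 (0.981), Zscan4f (0.976), Zscan4b (0.970) and Prr18 (0.957). Bola1 stood at 0.950 and Nelfa at 0.853. The libraries share time points and normalization, so these values are a description. Scd3, a fatty acid desaturase gene, had mean FPKM of 1.05 in Con and 8.79 with V580 at 48 h, 4.61 on day 4 and 0.248 on day 6.

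In the GSC stages the 6 genes were all but absent, while Nelfa and Bola1 were used throughout. The 8 libraries held 12694769 to 22259044 counts. Zscan4c, Zscan4d and B020031M17Rik had 0 counts in all 8, and Gm20767 had 1 count, in E13.5 replicate 2. BC080695 had 12 and 8 counts in the E13.5 libraries and 0 in the other 6. Against a floor of 3 counts per library, its lowest E13.5 level was at least 2.44-fold higher than in E12.5, and without a filter edgeR called it (adjusted p = 0.0202). Gm5039 was not listed. The libraries held markers of gonadal soma, with 191.1 to 346.5 summed CPM of the 3 granulosa markers.

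Bola1 was highest at E13.5. Its CPM was 33.6 and 30.6 at E12.5 and 64.7 and 63.8 at E13.5. The E16.5 libraries held 21.5 and 24.6, and those of P6w 27.9 and 33.7. The E13.5 libraries were above all others, the E16.5 libraries below all others, and E12.5 and P6w overlapped. The share of all genes whose stages separated in this way was not counted. Other markers were also higher at E13.5 than at E12.5. The 8 primordial germ cell markers went from 26.3 and 26.9 summed CPM in the E12.5 libraries to 54.2 and 54.55 in those of E13.5, and reached 80.8 and 93.8 in those of E16.5. The 8 pluripotent markers went from 20.4 and 22.8 summed CPM to 43.4 and 47.95, with 6.33 and 13.05 in the E16.5 libraries. The 3 erythroid markers went from 2158 and 2525 summed CPM to 8766 and 10120, with 6429 and 10190 in the E16.5 libraries and 192.2 and 212.8 in those of P6w. The part of these cells in the levels of Bola1 and BC080695 was not tested. Nelfa was at 47.2 and 58.7 CPM in the E12.5 libraries and 55.9 and 56.0 in those of E13.5. The E16.5 libraries were again the lowest (35.5 and 39.2), and P6w held 58.8 and 50.8.

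**Figure D5:**
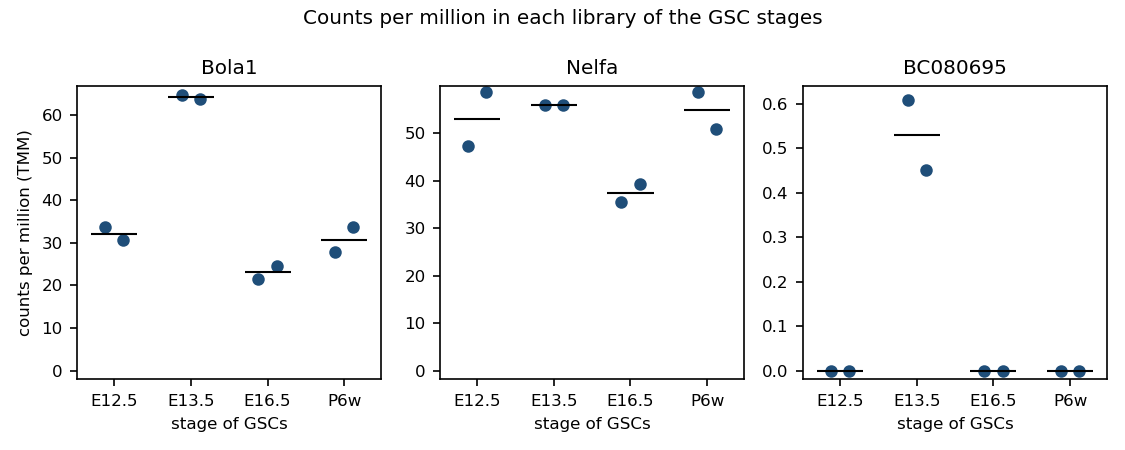
CPM of Bola1, Nelfa and BC080695 in each library of the GSC stages; points are libraries and bars are group means. Bola1 is highest at E13.5 (64.7 and 63.8 CPM), both Bola1 and Nelfa are lowest at E16.5, and BC080695 has counts at E13.5 alone, below 1 CPM.

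Only Nelfa and Bola1 passed the filter of edgeR's quasi-likelihood test. At E13.5, 1 of the 2 was called (background 45.9%): Bola1 was higher than at E12.5 by 1.02 ± 0.149 on the log2 scale (adjusted p = 7.71e-05), and Nelfa was at 0.10 (0.606). With a trend in gene length removed, the Bola1 difference was 0.26 (adjusted p = 0.153). At E16.5 both were called lower (background 37.6%, 17.1% lower), Bola1 at -0.47 (0.0235) and Nelfa at -0.49 (0.0161). Bola1 lost that call without either E12.5 library or E16.5 replicate 1, with adjusted p between 0.0663 and 0.172, and Nelfa without E12.5 replicate 2 (0.229). At P6w 0 of 2 were called by edgeR or DESeq2, with 0 at an unadjusted p below 0.05 (background 52.9%). The labels give all E12.5 and E13.5 libraries and E16.5 replicate 1 one L tag, and E16.5 replicate 2 and both P6w libraries another. With this tag as a term of the fit, added after the data had been seen and resting on the pair of E16.5 libraries, the calls were the same: Bola1 at 1.02 (adjusted p = 1.99e-06) at E13.5 and -0.58 (0.00788) at E16.5, Nelfa at -0.57 (0.00647) at E16.5, and neither gene at P6w (0.416 and 0.781). Of the relatives, Bola2 and Bola3 were both called higher at E13.5 and 1 of the 3 other NELF subunits was.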

How the data were processed

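The genes and lists were chosen with earlier results of these data known. For the 10x sample the authors deposited UMI counts per Ensembl gene and barcode (Cell Ranger, mm10). Barcodes with under 200 genes or over 40% mitochondrial counts were dropped, as in the study, and symbols came from GENCODE vM21 (32158 of 32285 IDs matched). For the GSC stages the authors deposited raw read counts per gene (Hisat2, mm10, featureCounts), and for the inductions a table of FPKM, whose making is not given in the sources used here beyond the submitters' processing notes, which name Trim Galore, FastQC, HISAT2, SAMtools, featureCounts and RSEM. The FPKM columns named X580 and C were read as AM580 and Vc. A further table of 10 columns that matched no sample's labels was not used.

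Counts were tested with edgeR 4.0.16 (filterByExpr, TMM, quasi-likelihood), each stage against E12.5. FPKM was tested as log2(FPKM + 1) with limma 3.58.1 (trend), in 1 fit of the 15 libraries of the days with E12.5_GC (at least 1 FPKM in 3 libraries) and 1 of the 16 treatment libraries (at least 1 FPKM in 2 libraries). A call is a Benjamini-Hochberg adjusted p below 0.05 over all genes tested. Libraries were grouped by their titles. DESeq2 1.42.0, other filters, pseudocounts and scalings, a replicate block, and each library left out in turn were tried. The code was tested on simulated data. The text names the 8 genes, fixed lists with at most 4 genes each, and the 10 (10x) and 5 (FPKM) genes most like the members. Because Nelfa and Bola1 were found in many cells, cells were counted by the other 6 genes. That change, the contrast of Vc with and without AM580, the L tag as a term, the TGATNNNATCA search and the limits on concentrated genes were chosen after seeing the data. Members of a list named beyond 4, and the relatives of Nelfa and Bola1, were named after their values were seen. Total counts per GSC library set their precision, FPKM keeps no exact depth, and intervals cover counting error only. Doublets were not called. Deviations of same-numbered libraries had median correlations of 0.00624 in the stages, 0.0282 in the days and 0.0176 in the treatments. The ranges were -0.0403 to 0.0673, -0.431 to 0.386 and -0.427 to 0.211. Single pairs exceeded 0.1 in 0 of 12, 9 of 30 and 14 of 56 cases. Because the medians were low, the numbers were not taken as pairs.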

Additional observations from a re-analysis of the deposited data

Results flagged for a closer look

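The effect of an inducer on Gm20767, Bola1 and Nelfa differed between 48 h and 24 h by an interaction test in limma (differences of log2(FPKM + 1) differences from Con). For AM580 the value was 1.72 for Gm20767 and 1.12 for Bola1. For V580 it was 2.15 for Gm20767, 1.61 for Bola1 and 0.19 for Nelfa. Under every alternative run the calls on Gm20767 and Bola1 were kept, and that on Nelfa was lost without Con_24h replicate 2, V580_24h replicate 2, Con_48h replicate 1 or V580_48h replicate 2 (adjusted p from 0.0669 to 0.0903). The effect of Vc at 48 h differed with and without AM580, by 0.57 for Bola1 and 0.94 for Gm20767, the latter lost in 13 of 20 settings. All of these values rest on the same 2 Con libraries of each time, and groups of 2 or 3 libraries were too small for the search for a library that stands apart.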

How the results depend on the processing

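Over all alternatives, 1268 of 1340 values of single genes kept their direction and side of the threshold, 42 lost the call, 15 gained one and 15 turned direction. Of 36 called differences, 26 were called under every alternative run. Among the 26 are the differences of Gm20767 from day 4 and of Zscan4b from Con at 48 h. These were built into the genes' inclusion, so their kept calls are no support. Gm20767 failed the filter without a day 4 library, so its differences from day 4 were not tried there. None of the 15 that turned was called either way. With the length trend removed Bola1 at P6w was 0.0142, and with the L tag as a term Nelfa at P6w was -0.0925. The others came from leaving out 1 library: the ranges were -0.0598 to 0.2556 for Nelfa at E13.5, -0.1894 to 0.0746 for Bola1 (0.0195 without E12.5 replicate 1) and -0.0865 to 0.2273 for Nelfa at P6w (-0.0509 without P6w replicate 1), -0.29 to 0.11 for Bola1 on day 6 and -0.18 to 0.22 on day 10 against E12.5_GC, -0.30 to 0.42 for Gm20767 under Vc at 24 h (-0.05 without Con_24h replicate 1), -0.0332 to 0.063 for Bola1 under V580 at 24 h (-0.0059 without Con_24h replicate 1), and -0.0849 to 0.0114 for Bola1 and -0.13 to 0.23 for Gm20767 in V580 against AM580 at 24 h. The cause was not tested.

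Calls on the 8 genes summed over comparisons were 3 in the stages (1 to 4 with a library left out, 1 without E12.5 replicate 2; 1 at 2-fold or more), 4 against E12.5_GC (2 to 5; 2 without any 1 of the day 4 libraries, when Gm20767 failed the filter; 2 at 2-fold), 4 between successive days (3 to 5; 2 at 2-fold) and 17 over the treatments (15 to 21; 8 at 2-fold). The sums over the days include the differences of Gm20767 from day 4 that were built into its inclusion. The share of cells with at least 2 of the 6 genes was 0.196%; it was 0.0961% (14 of 14576 cells) after thinning to 1000 UMIs, which removes UMIs by construction, and 17.3% with all 8 genes counted. The replicate block changed 2 of 71 values, the calls on Gm20767 on day 6 against E12.5_GC (adjusted p = 0.0605) and for Vc with and without AM580 (0.0583), and no other call. Depth limits single copies of Zscan4, and a count of 0 in the stages allows up to 3 counts per library.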
